A study of Rattus norvegicus with 6 samples.

Results

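The genes described here are the 7 subunits of respiratory complex I that the rat mitochondrial genome encodes: mt-Nd1, mt-Nd2, mt-Nd3, mt-Nd4, mt-Nd4l, mt-Nd5 and mt-Nd6. They were taken by Ensembl identifier, and all 7 were found among the 26404 gene rows of each count table. All 7 also passed the filter on low counts, which left 12221 genes for testing. The counts come from polyA RNA sequencing of H9c2, a myoblast line from embryonic rat heart that 1 label spells Hc92. There were 3 groups with 2 libraries each: cells given an empty vector, cells with a BMPR2 tail domain mutant and cells with a BMPR2 kinase domain mutant. BMPR2 is a type II receptor kinase that binds bone morphogenetic proteins. The design text speaks of cells that lack the domain in question and sets both mutants against the empty vector. How the mutants were made, the promoter used, the number of clones and the time in culture are not stated in the labels. The labels do not say whether the replicates were separate cultures. The p-values therefore set differences between groups only against the spread among these libraries, which may in part be technical.

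Complex I is the first enzyme of the respiratory chain. It passes electrons from NADH to ubiquinone and pumps protons across the inner mitochondrial membrane, which makes it a main source of the proton gradient in heart muscle. The mitochondrially encoded subunits form the core of its membrane arm, while the other subunits are encoded in the nucleus and imported. Mitochondrial messenger RNAs are cut out of long transcripts that span many genes, mostly at the transfer RNAs between them. mt-Nd4l and mt-Nd4 stay together on a single messenger RNA. mt-Nd6 alone among the 7 is encoded on the opposite DNA strand and is cut from the transcript of that strand.

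Each library held between 19116082 and 24936136 counts in genes. No table used here pairs the other identifiers in the files with gene names, so Bmpr2, markers of muscle and of other cell types, nuclear complex I genes and the other mitochondrial genes were not analysed. The pairing of the 7 identifiers with gene names came with the gene set and was not checked against an annotation. Lengths of the 7 genes were not used here either, so values are compared between libraries and not between genes. One library stood apart for these genes. Kinase mutant replicate 1 had the highest level of all 6 libraries in 6 of the 7 genes, against 17.5% of all tested genes. The differences, correlations and overlaps of libraries that involve the kinase mutant are therefore given with and without it.

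Together the 7 genes took 2.95% and 3.38% of the reads in genes in the empty vector libraries, 3.15% and 3.75% in those of the tail mutant, and 5.02% and 2.67% in those of the kinase mutant. Counting error was small beside these differences: the exact 95% binomial intervals ran from 2.94% to 2.95% in empty vector replicate 1 and from 5.01% to 5.02% in kinase mutant replicate 1. Such intervals cover counting error only. The highest and the lowest share thus both lay in the kinase mutant. The group means were 3.17% ± 0.308 for empty vector, 3.45% ± 0.419 for the tail and 3.84% ± 1.66 for the kinase mutant (SD, n = 2). In an exact two-sided permutation test over libraries (n = 2 per group), the p for the tail mutant against empty vector was 0.667 and that for the kinase mutant against empty vector was 1. The p for the tail mutant against the kinase mutant was also 1, and 0.333 is the smallest that 2 libraries against 2 allow. Without kinase mutant replicate 1, the difference of the kinase mutant from the mean of empty vector was -0.498 percentage points instead of 0.676, and that of the tail from the kinase mutant was 0.782 instead of -0.391. Without tail mutant replicate 2 the difference of the tail mutant from empty vector was -0.0119 instead of 0.284.

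Levels below are CPM, read counts relative to the size of the library as scaled by TMM, a normalization that balances libraries on the bulk of their genes. In bulk RNA, more cells with a transcript and more of it in each cell cannot be told apart. The subunits that resemble ion antiporters and carry out proton pumping are mt-Nd2, mt-Nd4 and mt-Nd5. mt-Nd2 (ENSRNOG00000031033) measured 6220 and 7987 CPM with empty vector, 7198 and 8548 CPM with the tail mutant, and 13260 and 6746 CPM with the kinase mutant, for replicates 1 and 2 in turn. mt-Nd4 (ENSRNOG00000029707) measured 8533 and 10023 CPM with empty vector, 10806 and 11240 CPM with the tail mutant, and 16801 and 9355 CPM with the kinase mutant. mt-Nd5 (ENSRNOG00000029971), the subunit farthest from the electron-carrying arm, measured 4292 and 5755 CPM with empty vector, 5472 and 5981 CPM with the tail mutant, and 8288 and 4659 CPM with the kinase mutant. In each of these genes kinase mutant replicate 1 was highest, empty vector replicate 1 lowest and kinase mutant replicate 2 the next lowest. The tail mutant libraries lay in between, and for mt-Nd4 alone of the 3 both were above both empty vector libraries.

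mt-Nd1, mt-Nd3, mt-Nd4l and mt-Nd6 lie near the joint with the arm that carries electrons. mt-Nd1 (ENSRNOG00000030644), which helps form the ubiquinone-binding site, measured 5767 and 7133 CPM with empty vector, 6595 and 5936 CPM with the tail mutant, and 11281 and 5385 CPM with the kinase mutant. It was highest in kinase mutant replicate 1 and lowest in kinase mutant replicate 2, with the 4 other libraries in between and empty vector and tail mutant overlapping. mt-Nd3 (ENSRNOG00000033615), whose flexible loop takes part in the switch between the active and resting enzyme, measured 1153 and 1290 CPM with empty vector, 1293 and 1411 CPM with the tail mutant, and 1811 and 1167 CPM with the kinase mutant. Kinase mutant replicate 1 was highest and kinase mutant replicate 2 lay between the empty vector libraries, while the lower tail mutant and the higher empty vector library were almost level. mt-Nd4l (ENSRNOG00000031053), a small subunit on the proton path at the joint, measured 1235 and 1266 CPM with empty vector, 1347 and 1443 CPM with the tail mutant, and 2037 and 1146 CPM with the kinase mutant. Here too the tail mutant libraries were both above empty vector, and the kinase mutant held both extremes.

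mt-Nd6 (ENSRNOG00000029042) also lines the proton path at the joint, and it had far fewer reads, with 624 to 1130 counts per library. It measured 41.9 and 30.4 CPM with empty vector, 42.4 and 37.9 CPM with the tail mutant, and 37.9 and 41.9 CPM with the kinase mutant. The order of the libraries differed from that of the other genes: kinase mutant replicate 1 was the second lowest, and only empty vector replicate 2 was lower. Leaving empty vector replicate 2 aside, the libraries lay within a narrow band. The labels give no strand setting for the counting, so reads of mt-Nd6 and of RNA antisense to it cannot be told apart. The libraries were made from polyA RNA, and how well that selection captured mt-Nd6 was not tested. Its level and its capture therefore cannot be told apart.

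**Figure D1:**
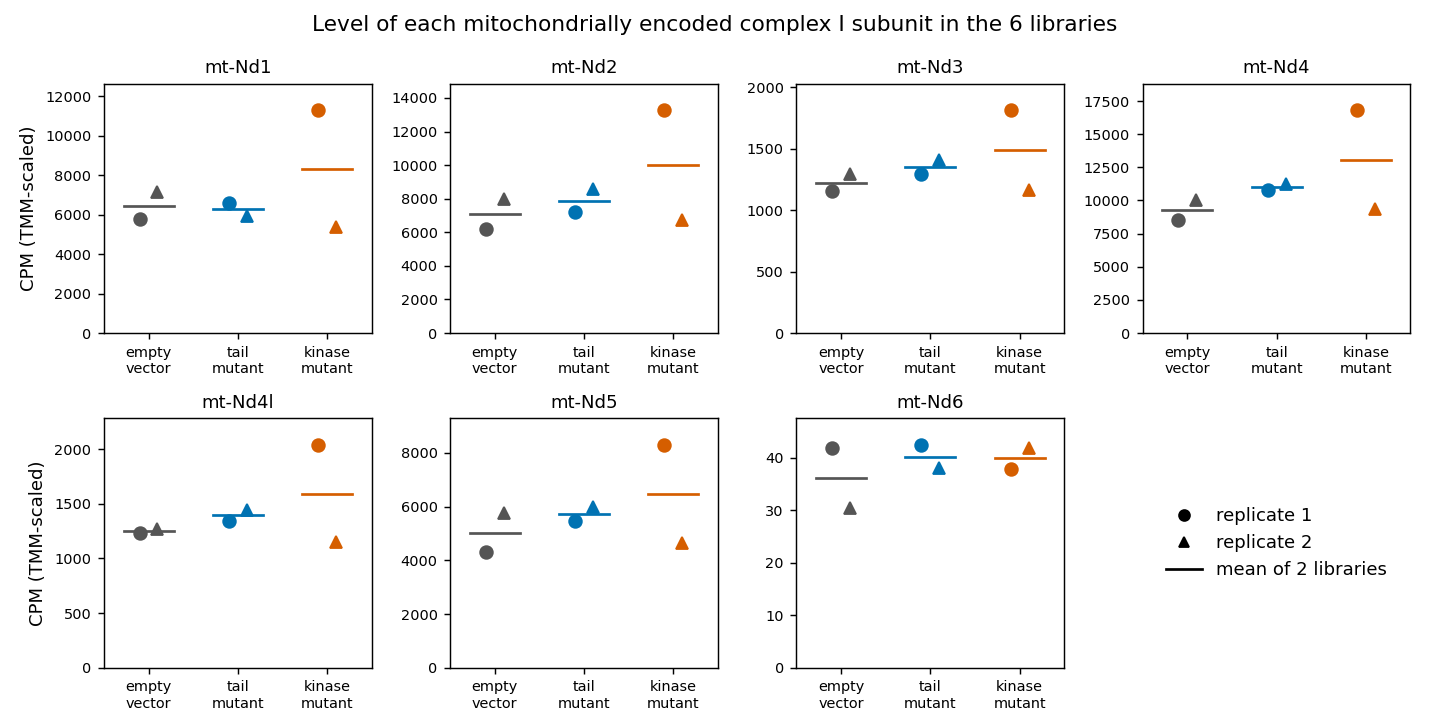
Level of each gene in TMM-scaled CPM (vertical axis, from 0) by group (horizontal axis). Circles are replicate 1, triangles replicate 2 and lines the mean of 2 libraries. In 6 panels kinase mutant replicate 1 is the highest point, while for mt-Nd6 it lies at 37.9 CPM among the others.

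The kinase mutant replicates lay farther apart in 6 of these genes than in most tested genes. Replicate 1 was 2.09 times replicate 2 for mt-Nd1 and 1.97 times for mt-Nd2. The ratio was 1.80 for mt-Nd4, 1.78 for mt-Nd4l and for mt-Nd5, and 1.55 for mt-Nd3. Among all 12221 tested genes the median replicate ratio in the kinase mutant was 1.18, and 7.67% had a larger replicate difference than mt-Nd1, 11.7% a larger one than mt-Nd4 and 17.5% a larger one than mt-Nd3. mt-Nd6 did not share this: it was 1.11 times as high in replicate 2, and 67.3% of genes had a larger difference. In the tail mutant the replicates of the 7 genes lay 1.04 to 1.19 times apart, with a median of 1.09, against a median of 1.29 over all tested genes. In empty vector they lay 1.03 to 1.38 times apart, with a median of 1.24 against 1.17 over all tested genes. There 6 of the 7 were higher in replicate 2 and mt-Nd6 was higher in replicate 1. Kinase mutant replicate 1 also had the lowest share of alignments that were not unique, 27.3% of everything tallied in its table against 27.6% to 31.5% in the other libraries. It had 17.4% of reads in no annotated gene, against 15.4% to 17.5% elsewhere. The part of these measures in its high levels was not tested.

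**Figure D2:**
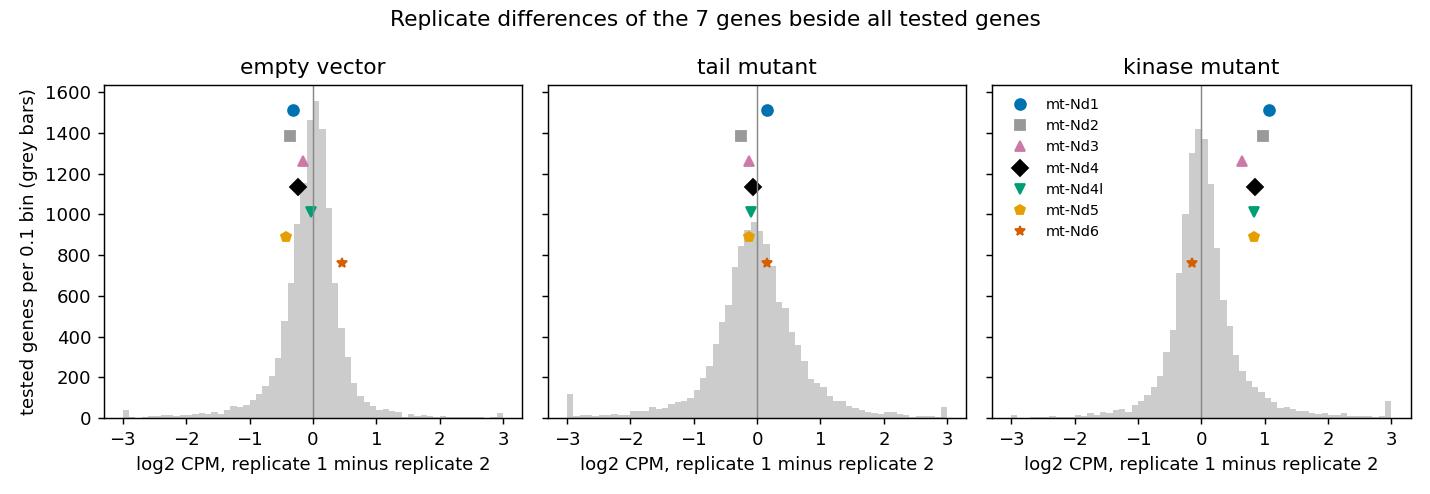
Difference between the replicates of each group in log2 CPM (horizontal axis, replicate 1 minus replicate 2). Grey bars count tested genes per bin (vertical axis), with differences beyond the axis collected in its outermost bins, and markers show the 7 genes at heights chosen for legibility. In the kinase mutant 6 markers lie right of most genes, while mt-Nd6 lies near 0.

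The tail mutant was compared with empty vector to ask which genes differ when the tail domain is altered. Of the 7 genes, 0 passed in edgeR's quasi-likelihood test, in which 0.00818% of all tested genes were called at a Benjamini-Hochberg adjusted p below 0.05. At an unadjusted p below 0.05 in edgeR there were also 0 of 7, against 8.56% of all tested genes, and DESeq2 called 0 of 7, against 2.03%. The largest fitted difference was that of mt-Nd4, which averaged 9278 ± 1054 CPM with empty vector against 11023 ± 307 CPM with the tail mutant (SD, n = 2). Its log2 difference was 0.25 ± 0.35 (SE), with a 95% interval from -0.60 to 1.09 and a Benjamini-Hochberg adjusted p of 0.876 from edgeR. mt-Nd1 averaged 6450 ± 966 CPM with empty vector against 6265 ± 466 CPM with the tail mutant (SD, n = 2), which gave a log2 difference of -0.042 ± 0.39 (SE). The log2 differences of the other 5 genes lay between 0.15 and 0.19. The median over the 7 genes was 0.15, beside 0.01 over all tested genes, where the median size of a difference was 0.23.

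Without overlap between the libraries, 3 of the 7 were higher in the tail mutant (mt-Nd3, mt-Nd4 and mt-Nd4l), against 18.1% of all tested genes in that direction, and 0 were lower, against 19.7%. For mt-Nd3 the gap was narrow, 1290 CPM in empty vector replicate 2 and 1293 CPM in tail mutant replicate 1. Of the 3, mt-Nd4 and mt-Nd4l share a messenger RNA. The count also depended on TMM. Under total count scaling mt-Nd3 overlapped, at 1248 and 1304 with empty vector and 1245 and 1528 with the tail mutant. So did mt-Nd4l, at 1337 and 1279 against 1297 and 1563, while mt-Nd4 still did not overlap. The intervals of all 7 genes contained 0, and they reached 0.66 for mt-Nd6 and 1.09 for mt-Nd4 on the log2 scale, so a rise of up to that size lies within the error of 2 libraries a group. The sign of mt-Nd1 turned without empty vector replicate 2 (0.11) or tail mutant replicate 2 (0.034), that of mt-Nd6 without empty vector replicate 2 (-0.069), and those of mt-Nd2 (-0.020) and mt-Nd5 (-0.0063) without empty vector replicate 1. The median over the 7 genes was 0.068 without empty vector replicate 1.

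The kinase mutant was compared with empty vector to ask the same of the kinase domain. The means of all 7 genes were higher in the kinase mutant, and 0 of 7 passed in edgeR's quasi-likelihood test, which called 0.00818% of all tested genes here too. At an unadjusted p below 0.05 in edgeR there were 0 of 7 against 10.8% of all tested genes, and DESeq2 called 0 of 7 against 2.95%. mt-Nd4 averaged 13078 ± 5265 CPM with the kinase mutant (SD, n = 2). The fitted log2 difference from empty vector was 0.50 ± 0.35 (SE), with a 95% interval from -0.35 to 1.34 and a Benjamini-Hochberg adjusted p of 0.640 from edgeR. mt-Nd2 had nearly the same difference, 0.49 ± 0.38 (SE), with means of 7104 ± 1250 CPM for empty vector and 10003 ± 4606 CPM for the kinase mutant (SD, n = 2). The smallest difference was that of mt-Nd6, 0.14 ± 0.21 (SE), from 36.2 ± 8.09 to 39.9 ± 2.83 CPM (SD, n = 2), and its sign turned under total count scaling (-0.027) and without empty vector replicate 2 (-0.074). The median over the 7 genes was 0.37, beside -0.01 over all tested genes.

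Libraries overlapped between the kinase mutant and empty vector for all 7 genes. Not overlapping were 0 of 7 in either direction, against 50.7% of all tested genes. With kinase mutant replicate 1 left out, replicate 2 lay below both empty vector libraries for mt-Nd1 (5385 against 5767 and 7133 CPM). The same held for mt-Nd4l (1146 against 1235 and 1266 CPM). For mt-Nd6 it lay just above both, and for the remaining genes between them. The share of all tested genes was not computed for this case, and 1 library meets the criterion more easily. The direction of the mean rested on 1 library. Without kinase mutant replicate 1 the median log2 difference of the 7 genes was -0.074. Then mt-Nd1 stood at -0.26, mt-Nd4l at -0.13, mt-Nd5 at -0.11, mt-Nd2 at -0.074 and mt-Nd3 at -0.066, while 2 genes kept a positive value. Without kinase mutant replicate 2 the median was 0.72, and 3 of 7 genes had an unadjusted p below 0.05 in edgeR, against 8.83% of the genes tested then, with adjusted p-values of at least 0.542 (Benjamini-Hochberg). In such a comparison the lone library is assumed to vary like the other groups.

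The direct comparison of the mutants asks whether they differ from each other in these genes. In edgeR's quasi-likelihood test 0 of 7 passed, as did 0% of all tested genes. At an unadjusted p below 0.05 in edgeR there were 0 of 7 against 3.67% of all tested genes, and DESeq2 called 0 of 7 against 0.0982%. The largest difference was that of mt-Nd1, which averaged 6265 ± 466 CPM with the tail mutant against 8333 ± 4169 CPM with the kinase mutant (SD, n = 2). The fitted difference, -0.41 ± 0.39 (SE) on the log2 scale, had a 95% interval from -1.36 to 0.53 and a Benjamini-Hochberg adjusted p of 0.926 from edgeR. For mt-Nd6 the log2 difference was 0.01 ± 0.21 (SE), with a 95% interval from -0.50 to 0.52. The 2 groups overlapped in 7 of 7 genes, while 30.0% of all tested genes did not overlap. In the 6 genes other than mt-Nd6 the overlap rested on kinase mutant replicate 1. Both tail mutant libraries lay above kinase mutant replicate 2 in these genes, for mt-Nd4 at 10806 and 11240 against 9355 CPM. For mt-Nd6 kinase mutant replicate 2 lay between the tail mutant libraries. The share of all tested genes was not computed without kinase mutant replicate 1, and 1 library meets the criterion more easily. No difference between the mutants is read from these positions. The median over the 7 genes was -0.19, beside 0.01 over all tested genes. Without kinase mutant replicate 1 it became 0.22, and the 6 genes other than mt-Nd6 all stood between 0.21 and 0.30, higher in the tail mutant. mt-Nd6 then stood at -0.062, and at -0.077 without tail mutant replicate 1. Without kinase mutant replicate 2 the median was -0.55, and 1 of 7 genes (mt-Nd1) had an unadjusted p below 0.05 in edgeR, against 3.95% of the genes tested then.

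**Figure D3:**
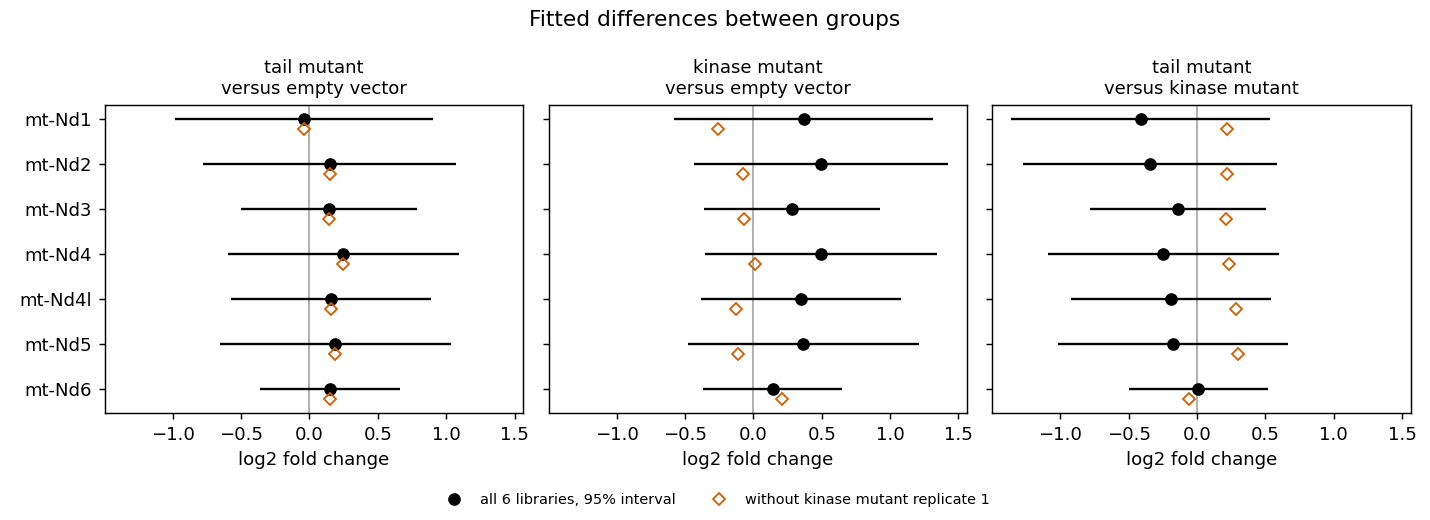
Fitted log2 fold change (horizontal axis) of each gene (vertical axis) in the 3 comparisons. Filled circles with 95% intervals use all 6 libraries and open diamonds leave out kinase mutant replicate 1. Every interval contains 0. In both comparisons with the kinase mutant the diamonds of mt-Nd1, mt-Nd2, mt-Nd3, mt-Nd4l and mt-Nd5 lie across 0 from the circles. Those of mt-Nd4 and mt-Nd6 do so only in the tail against the kinase mutant.

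The balance among the 7 genes does not depend on how libraries are scaled. mt-Nd4 took between 29.9% and 33.0% of their summed reads, mt-Nd2 at most 24.8%, mt-Nd1 between 17.2% and 21.3%, and mt-Nd5 between 15.5% and 17.3%. mt-Nd4l took 3.78% to 4.53% and mt-Nd3 3.38% to 4.23%. These shares count reads and are not levels per length. For these 6 genes the highest library was 1.10 to 1.25 times the lowest, while the total of all 7 moved from 2.67% to 5.02% of the reads in genes.

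mt-Nd6 moved most, its highest share being 2.17 times its lowest. Per 100 reads of the other 6 genes it had 0.154 and 0.0910 reads in empty vector, 0.130 and 0.110 in the tail mutant, and 0.0708 and 0.147 in the kinase mutant. The value was lowest in kinase mutant replicate 1, where the other 6 were highest, and both mutants overlapped with empty vector. As a share of all 7 genes, the exact 95% binomial interval was 0.0658% to 0.0760% in kinase mutant replicate 1 and 0.137% to 0.157% in replicate 2, so counting error does not span that gap between libraries. Within empty vector the intervals, 0.145% to 0.163% and 0.0839% to 0.0983%, did not overlap either.

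**Figure D4:**
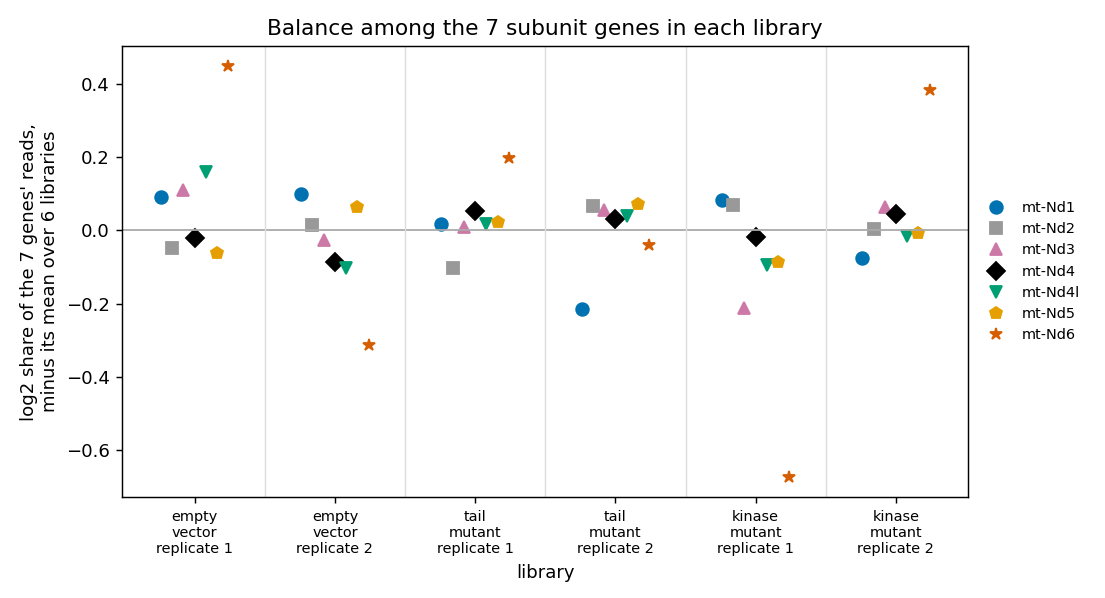
Share of each gene in the summed reads of the 7 genes, on a log2 scale and centred on its mean over the 6 libraries (vertical axis), in each library (horizontal axis). mt-Nd6 spans from 0.45 in empty vector replicate 1 to -0.67 in kinase mutant replicate 1, and mt-Nd1 falls to -0.21 in tail mutant replicate 2.

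mt-Nd4, which had the most reads in every library, served as a common measure for the others. Per 100 mt-Nd4 reads, mt-Nd4l, which shares its messenger RNA, had 14.5 and 12.6 reads in empty vector, 12.5 and 12.8 in the tail mutant, and 12.1 and 12.3 in the kinase mutant. Empty vector replicate 1 stood above the 5 other libraries, which lay close together. Reads tallied as ambiguous between any 2 genes numbered 5494 to 7740 per library. The mode of counting reads that span 2 genes is not given here. That number is therefore no upper limit on the reads lost where mt-Nd4l and mt-Nd4 meet. mt-Nd1 had 67.6 and 71.2 reads per 100 mt-Nd4 reads in empty vector, 61.0 and 52.8 in the tail mutant, and 67.1 and 57.6 in the kinase mutant. All 4 mutant libraries lay below both empty vector libraries, kinase mutant replicate 1 by a narrow margin. mt-Nd3 had 13.5 and 12.9 in empty vector, 12.0 and 12.5 in the tail mutant, and 10.8 and 12.5 in the kinase mutant, and here too the 4 mutant libraries were lower.

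Counted over the 6 genes, 2 (mt-Nd1 and mt-Nd3) were lower in the tail mutant than in empty vector without overlap, against 40.0% of all tested genes measured in the same way. In the kinase mutant 4 were lower (mt-Nd1, mt-Nd3, mt-Nd4l and mt-Nd5), against 35.5%. There were 5 without kinase mutant replicate 1, with mt-Nd2 added, against 37.3%, a criterion that is easier to meet with fewer libraries. These comparisons share the empty vector libraries and the mt-Nd4 reads. The share in the tail mutant thus lay near the background. In the kinase mutant the gaps were narrow, such as 67.1 against 67.6 for mt-Nd1 and 49.8 against 50.3 for mt-Nd5. For each of the 4 genes the gap was smaller than the distance between the empty vector replicates. A lower ratio is not a lower level, since mt-Nd4 itself was higher in the tail mutant by CPM without overlap. By CPM mt-Nd3 was also higher there without overlap, and mt-Nd1 overlapped with empty vector. Between the mutants, 2 genes (mt-Nd4l and mt-Nd5) were higher in the tail mutant without overlap, against 9.44% of all tested genes. There were again 2, mt-Nd4l and mt-Nd5, without kinase mutant replicate 1, against 11.5%. In that case 1 gene, mt-Nd6, was lower in the tail mutant, and the share of all tested genes in that direction was not computed. mt-Nd5 had 50.3 and 57.4 reads per 100 mt-Nd4 reads in empty vector, 50.6 and 53.2 in the tail mutant, and 49.3 and 49.8 in the kinase mutant. The 4 mutant libraries thus spanned less than the distance between the empty vector replicates. With 2 libraries a group, an exact permutation test of any of these ratios cannot go below 0.333.

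The ratio of mt-Nd1 to mt-Nd2 reads singled out another library. Per 100 mt-Nd2 reads mt-Nd1 had 92.7 and 89.3 reads in empty vector, 91.6 and 69.4 in the tail mutant, and 85.1 and 79.8 in the kinase mutant. Tail mutant replicate 2 was the lowest by far, while its own replicate lay within the range of empty vector. The 2 genes were chosen for this ratio after their values had been seen. Tail mutant replicate 2 also had the lowest share of reads in its 10 most counted genes, 16.0% against 19.9% to 22.1% elsewhere, and the part of this in its ratio was not tested.

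Likeness between genes was measured as Pearson's r of log2 CPM over the 6 libraries, which share sequencing depth and scaling and do not form independent conditions. With the mean of the 6 remaining genes, r was 0.99 for mt-Nd4 and for mt-Nd3, 0.98 for mt-Nd4l, 0.97 for mt-Nd2, 0.95 for mt-Nd5 and 0.90 for mt-Nd1. For mt-Nd6 it was -0.26. Over the 5 libraries without kinase mutant replicate 1, r was 0.97 for mt-Nd3, 0.96 for mt-Nd4, 0.91 for mt-Nd5, 0.85 for mt-Nd4l, 0.80 for mt-Nd2, 0.36 for mt-Nd1 and -0.53 for mt-Nd6. The likeness of mt-Nd1 to the others was thus far lower without that library. Outside the 7 genes, 138 of 12214 tested genes (1.13%) had an r of at least 0.9 with the mean of the 7. There were 119 (0.974%) without kinase mutant replicate 1, of which 12 were among the 138. The most alike was ENSRNOG00000017478 with an r of 0.988, which stood between 31.3 and 34.2 CPM in 5 libraries and at 39.3 CPM in kinase mutant replicate 1. Next was ENSRNOG00000033412 with 0.988, at 16.6 to 22.6 CPM in those 5 libraries and at 37.7 CPM in kinase mutant replicate 1. Without that library r was 0.912 for the former and 0.910 for the latter.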

How the data were processed

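PolyA RNA of 6 H9c2 libraries was sequenced. The authors deposited raw read counts per Ensembl rat gene, 1 table per library. Per the submitters' processing notes, Trimmomatic 0.33, STAR 2.4.0 and HTSeq 0.6.1p1 were used with the genome build Rnor_5.0. Neither notes nor labels state the strand setting, annotation release or filters. Reads that align to more than 1 place, such as mitochondrial sequence with a nuclear copy, enter no gene's count and may lower these genes. The 5 rows that name no gene (15.4% to 17.5% of all tallied reads for those in no annotated gene and 27.3% to 31.5% for alignments that were not unique) did not enter library sizes or tests.

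Counts were fitted in R 4.3.3 with edgeR 4.0.16: filterByExpr by group (minimum count of 10, minimum total of 15), TMM scaling, robust dispersions and a quasi-likelihood test with group as the only term. The spread was estimated over all 6 libraries, with 3 residual degrees of freedom. P-values were adjusted by Benjamini-Hochberg over 12221 genes and called below 0.05. A standard error is the log2 fold change divided by the square root of F, and its interval uses the moderated degrees of freedom. DESeq2 1.42.0 was the alternative tool. The script was run on simulated counts with known changes, and the share of changes recovered is not reported here. Shares were compared by exact permutation, and binomial intervals are Clopper-Pearson at 95%, from SciPy 1.17.1.

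The 7 genes and the lists were chosen with earlier results of these data known. The text names these 7 and the 2 genes most alike by r. The rat gene table used here (GRCr8) gave an Ensembl identifier for 0 of 47357 genes, so 0 identifiers matched a symbol and the lists of nuclear complex I genes, other mitochondrial genes and cell type markers were not tested. Alternatives were other scalings, no filter, DESeq2, only the 4 libraries compared, a replicate block, each library left out, and other denominators for the shares.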

Additional observations from a re-analysis of the deposited data

How the results depend on the processing

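The number of the 7 genes called stayed at 0 in every comparison under each alternative run, including DESeq2, no filter, only the 4 libraries compared, the 3 other scalings and each library left out. With libraries left out in turn, the median log2 difference of the 7 genes ranged from 0.068 to 0.22 for the tail mutant against empty vector, from -0.074 to 0.72 for the kinase mutant against empty vector and from -0.55 to 0.22 for the tail against the kinase mutant. The difference in their share of reads in genes ranged from -0.0119 to 0.581, from -0.498 to 1.85 and from -1.56 to 0.782 percentage points in the same order. The lower end in the kinase mutant against empty vector, and the upper end in the tail against the kinase mutant, came without kinase mutant replicate 1.

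Of 372 alternative values (3 of them chosen after seeing the data), 345 were counted as kept, 25 turned sign and 2 medians moved by more than a standard error. Moves of that size with the same sign were counted for medians only. The 345 thus include mt-Nd1 in the kinase mutant against empty vector without kinase mutant replicate 2, 0.81 instead of 0.37 ± 0.39 (SE). They also include the 3 later values, counts without a sign, such as 119 instead of 138 genes at an r of at least 0.9. Of the 25, 24 came from leaving out a library. With libraries left out, the log2 differences of genes that turned sign in the tail mutant against empty vector ranged from -0.19 to 0.11 for mt-Nd1, -0.020 to 0.33 for mt-Nd2, -0.0063 to 0.41 for mt-Nd5 and -0.069 to 0.40 for mt-Nd6. In the kinase mutant against empty vector they ranged from -0.26 to 0.81 for mt-Nd1, -0.074 to 0.90 for mt-Nd2, -0.066 to 0.57 for mt-Nd3, -0.13 to 0.70 for mt-Nd4l, -0.11 to 0.72 for mt-Nd5 and -0.074 to 0.39 for mt-Nd6. In the tail against the kinase mutant they ranged from -0.85 to 0.22 for mt-Nd1, -0.75 to 0.22 for mt-Nd2, -0.42 to 0.21 for mt-Nd3, -0.61 to 0.24 for mt-Nd4, -0.55 to 0.28 for mt-Nd4l, -0.53 to 0.30 for mt-Nd5 and -0.077 to 0.088 for mt-Nd6. Total count scaling turned mt-Nd6 in the kinase mutant against empty vector (-0.027). That scaling moved the median of all genes in this comparison to -0.17, and relative to that median the 7 genes' median was 0.39, beside 0.38 with TMM. The cause of the sign changes was not tested beyond the library left out.

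The replicate numbers are not stated to mark a shared culture or day. Deviations of same-numbered libraries from their group means correlated across genes at 0.12 between empty vector and tail mutant, -0.13 between empty vector and kinase mutant and -0.35 between the mutants. With a replicate block the medians were 0.16, 0.31 and -0.16, and 0 of the 7 genes were called. With 2 libraries a group the intervals given above were wide, so 0 of 7 genes called does not show that the groups are alike. The intervals are not limits of detection.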
